A study of Mus musculus with 6 samples.

Results

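Bulge stem cell transcription factors are the DNA-binding proteins that give hair follicle stem cells (HFSCs) their identity and keep them at rest or release them into growth. They were taken as the rows of the deposited count table whose gene name was Sox9, Lhx2, Nfatc1, Foxc1, Tbx1, Runx1, Nfib, Nfix, Foxp1 or Klf5. All 10 were found among 56941 genes in the table, and all 10 were among the 32149 genes that passed the filter on low counts. The rule is by name and uses no measured value, but the names were chosen with earlier results of these data known.

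HFSCs rest in the bulge, a niche below the sebaceous gland, during telogen, the resting phase of the hair cycle, and enter the cycle when a new anagen growth phase starts. Sox9 and Lhx2 specify and maintain the stem cell pool, Nfib and Nfix act with them at the enhancers of bulge cells, and Nfatc1, Foxc1 and Foxp1 are known for holding the cells in quiescence. Runx1 promotes their activation and Tbx1 their self-renewal, whereas Klf5 belongs to the basal epidermis and to cells that repair a wound.

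The study sequenced total RNA of HFSCs sorted from dorsal skin by flow cytometry as CD34+/α6-integrin+ cells, from female mice at postnatal day (PD) 68. The strain of both genotypes was B6;129S4-Dab2tm1Cpr/J, both carried floxed Dab2 alleles (Dab2fl/fl) on both chromosomes, and both received tamoxifen at 75 mg/kg for 5 days. The 3 replicates labelled WT lacked the Cre transgene (K14CreER-/-) and the 3 labelled Dab2-cKO carried it (K14CreER+/-), with Cre driven by the keratin 14 promoter of basal keratinocytes and active once tamoxifen is given. The study placed both genotypes in the second telogen, and the comparison asks how the loss of the endocytic adaptor Dab2 alters HFSCs at PD68. The libraries held 7040032 to 11696457 counts.

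Dab2 itself did not follow the labels. Its normalized counts, that is counts scaled to a common effective library size, were 338.5, 332.2 and 309.3 in the libraries labelled WT and 1434, 1300 and 1390 in those labelled Dab2-cKO, which is 4.21-fold higher in the latter (edgeR quasi-likelihood test, adjusted p = 3.04e-34). The counts cover all exons, so a transcript that lacks only the deleted exons would still be counted. Whether such a transcript was present was not tested, and neither was the reason why Dab2 was higher. Markers of other cell types that were also higher are given below. The columns taken as Dab2-cKO are named for the floxed alleles that both genotypes carry, and every direction below depends on that assignment and is therefore given for the libraries as labelled.

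Markers of the sorted cells were present in every library, but the libraries were not made of bulge transcripts alone. Of 11 bulge markers, 8 were higher in the libraries labelled Dab2-cKO, Cd34, Itga6 and Krt15 among them, and Lgr5 was lower. Markers of other cells moved too. The 7 fibroblast markers were all higher, with summed normalized counts of 101500 to 122800 in the libraries labelled WT and 354000 to 373700 in those labelled Dab2-cKO. All 7 endothelial, all 6 skeletal muscle, all 5 sebaceous and 6 of 7 immune markers were higher as well, and of 6 interfollicular markers 5 were higher and Ivl was lower. In the other direction, 10 of 10 markers of the hair shaft and inner root sheath were lower, with summed normalized counts of 230600 to 277400 labelled WT and 2318 to 2394 labelled Dab2-cKO, as were 8 of 8 proliferation and 5 of 5 melanocyte markers. Beside these counts, 16.8% of all genes tested were higher and 11.5% lower at an adjusted p below 0.05. Of the genes averaging 100 normalized counts or more, 37.6% were higher and 22.8% lower. No marker was at 0 in all libraries. The proliferation gene Mki67 averaged 6162 normalized counts labelled WT and 1413 labelled Dab2-cKO. The shaft and proliferation markers thus differed although the study placed both genotypes in telogen, and a difference in hair cycle phase was not tested. The part of these marker shifts in the results on the 10 factors was not tested, and fewer cells of a type and less RNA per cell cannot be told apart in bulk samples.

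Of the 10 factors, 7 were lower in the libraries labelled Dab2-cKO, 2 were higher and 1 was not called, with calls made at an adjusted p below 0.05. Among all genes tested, 28.2% were called, 11.5% as lower and 16.8% as higher. Among the genes averaging 100 normalized counts or more, to which all 10 factors belong, 60.5% were called, 22.8% as lower and 37.6% as higher. The median log2 fold change of the factors was -0.73, and that of all genes tested was -0.02. The libraries of the genotypes did not overlap for 9 of 10 factors, against 38.3% of all genes tested and 67.8% of those averaging 100 or more. The plot of the factors by library shows these values.

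**Figure D1:**
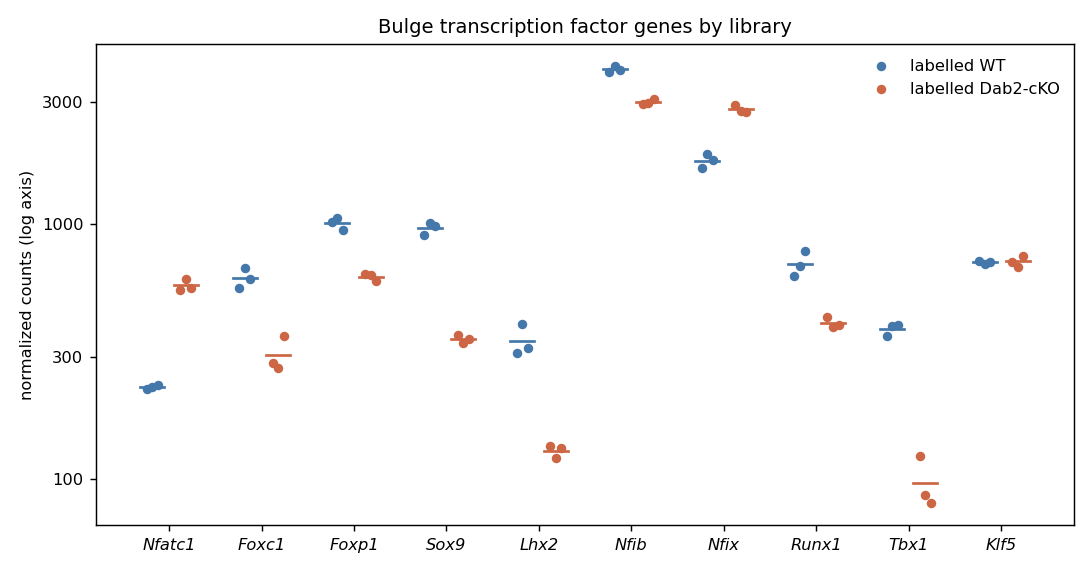
Normalized counts (log axis) of the 10 bulge transcription factor genes in each library, with blue points for the 3 labelled WT, orange points for the 3 labelled Dab2-cKO and a bar at each group mean. Nfatc1 and Nfix lie higher in the libraries labelled Dab2-cKO, Klf5 overlaps, and the other 7 lie lower without overlap.

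Factors of the same role did not move as one. The regulators of quiescence split, with Nfatc1 higher and Foxc1 and Foxp1 lower. Nfatc1 (chr18:80649266-80756295, minus strand), a factor that the phosphatase calcineurin sends to the nucleus and that keeps bulge cells at rest, had normalized counts of 226, 230.2 and 233.3 in the libraries labelled WT and 554, 611 and 560.7 in those labelled Dab2-cKO. The latter 3 did not overlap the former, at 229.8 ± 3.63 against 575 ± 31.1 (SD, n = 3 each). On the log2 scale it rose by 1.32 (SE 0.10, adjusted p = 1.76e-19).

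Foxc1 (chr13:31990616-31996459, plus strand), a forkhead factor that stem cells switch on when they divide and that returns them to rest, moved the other way. Its values were 562.3, 673.5 and 608.3 labelled WT and 285.1, 272.7 and 365.3 labelled Dab2-cKO, or 2.00-fold lower (SE of the log2 fold change 0.10, adjusted p = 4.03e-14). The highest library labelled Dab2-cKO, replicate 3, remained below the lowest labelled WT. Foxp1 (chr6:98902299-99499685, minus strand), a forkhead repressor that delays the start of anagen, had values of 1020, 1055 and 951 against 637, 632.8 and 596. It fell by 0.70 on the log2 scale (SE 0.08, adjusted p = 4.21e-12), a smaller step than Foxc1. In the exons of Foxp1, 2.69% of the bases also belong to other annotated genes on the same strand.

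Among the factors of stem cell identity, Sox9 and Lhx2 fell to nearly the same extent. Sox9 (chr11:112673009-112678586, plus strand), which the bulge needs from its first formation, was at 907.4, 1008 and 984.3 in the libraries labelled WT and at 367.1, 341.7 and 355.4 in those labelled Dab2-cKO. This is a log2 fold change of -1.45 (SE 0.08, adjusted p = 4.44e-25), or 2.72-fold lower. Lhx2 (chr2:38229293-38259759, plus strand), a LIM homeodomain factor that organizes the niche, was at 312.9, 404.4 and 326.4 against 134.5, 120.8 and 132.4, 2.69-fold lower (log2 fold change -1.43, SE 0.12, adjusted p = 2.70e-16). Taken within each library, the log2 ratio of Sox9 to Lhx2 was 1.48 ± 0.15 (SD, n = 3) labelled WT and 1.46 ± 0.04 labelled Dab2-cKO, and the 2 sets overlapped (difference -0.02, exact 2-sided permutation test, p = 0.9). An antisense lncRNA, BC006965, overlaps 13.0% of the exon bases of Sox9. Its own normalized counts averaged 124 and 101 (adjusted p = 0.229).

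The nuclear factor I pair moved apart. Nfib (chr4:82208410-82623987, minus strand), which bulge cells use to hold back signals to neighbouring melanocyte stem cells, had the highest counts of the 10 factors in both genotypes. Its values of 3962, 4176 and 4016 labelled WT were followed by 2969, 2981 and 3085 labelled Dab2-cKO, a log2 fold change of -0.43 (SE 0.07, adjusted p = 2.80e-07). Nfix (chr8:85426505-85527046, minus strand), which shares much of its binding with Nfib in the bulge, was higher, at 1659, 1879 and 1789 against 2941, 2787 and 2765 (log2 fold change 0.67, SE 0.07, adjusted p = 6.77e-13). Within each library the log2 ratio of Nfix to Nfib went from -1.19 ± 0.06 to -0.09 ± 0.07, a difference of 1.10 with no overlap (p = 0.1 in an exact 2-sided permutation test, which cannot give less with 3 against 3). Opposite-strand genes overlap 9.56% of the exon bases of Nfix. Of these, Lyl1 averaged 22.5 normalized counts labelled WT and 72.5 labelled Dab2-cKO. Trmt1, with the largest overlap, averaged 231 and 228 (adjusted p = 0.940), and G430095P16Rik 33.7 and 19.6 (adjusted p = 0.0801).

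Both factors tied to activation and self-renewal fell. Runx1 (chr16:92398354-92623037, minus strand) was at 625.7, 687 and 786.9 in the libraries labelled WT and at 432.9, 394.7 and 403.9 in those labelled Dab2-cKO, a log2 fold change of -0.77 (SE 0.09, adjusted p = 1.34e-11). Tbx1 (chr16:18399729-18409421, minus strand), a T-box factor of the bulge that restrains BMP signaling in dividing stem cells, showed the largest change of the 10. It went from 365.2, 397.2 and 401.6 to 123, 86.3 and 80.57, or 4.01-fold lower (log2 fold change -1.99, SE 0.13, adjusted p = 4.60e-22). Of the 10846 genes averaging 100 or more, 1.58% had a lower log2 fold change than Tbx1, 2.97% than Sox9 and 3.02% than Lhx2. For Nfatc1, 92.2% had a lower one.

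Klf5 (chr14:99536086-99552473, plus strand) did not pass the test. Its values were 717, 699.7 and 713.4 labelled WT and 707.6, 681.2 and 752.7 labelled Dab2-cKO, which overlap, with a log2 fold change of 0.01 (SE 0.08, adjusted p = 0.962). The log2 ratio of Sox9 to Klf5 within each library fell by 1.45, from 0.44 ± 0.09 to -1.01 ± 0.07 (exact 2-sided permutation test, p = 0.1).

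How the libraries were scaled to each other set the size of each change, since the scaling factors of the genotypes differed (1.11 to 1.21 labelled WT and 0.847 to 0.876 labelled Dab2-cKO). Under upper-quartile scaling the median log2 fold change of all genes was -0.17, under library size alone -0.45, and after scaling to the keratinocyte genes Krt5, Krt14 and Itga6, chosen after seeing the data, -0.69. The split of all called genes into lower and higher was 3682 and 5387 in the results above, 5561 and 4281 under upper-quartile scaling, 11168 and 2686 under library size alone, and 16972 and 1897 under the keratinocyte genes. The 7 factors that fell were lower in each of these, and Nfatc1 was higher in each, by 0.65 to 1.32 on the log2 scale. Each other scaling moved the log2 fold changes of all genes downward, so the 7 falls could not be lost by it. Nfix was not called against the keratinocyte genes, where its log2 fold change was 0.00 (adjusted p = 0.979). Klf5, in turn, was lower under library size alone (log2 fold change -0.42, adjusted p = 1.98e-07) and against the keratinocyte genes (-0.66, adjusted p = 2.54e-14).

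**Figure D2:**
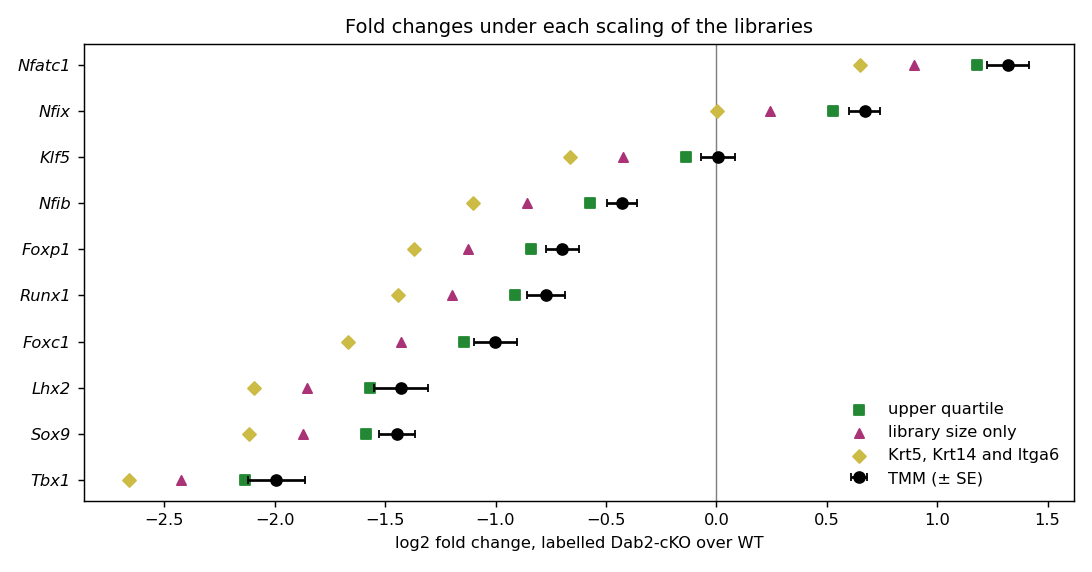
Log2 fold change of each factor, libraries labelled Dab2-cKO over WT, with the TMM scaling used in the text as black circles with SE and 3 other scalings as coloured marks. Each scaling shifts all factors by about the same amount, their order is kept, Nfix reaches 0.00 and Klf5 -0.66 when the libraries are scaled to Krt5, Krt14 and Itga6, and no other factor changes sign.

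Ratios within a library do not depend on this scaling. From -1.42 ± 0.12 labelled WT, the log2 ratio of Nfatc1 to Foxc1 went to 0.91 ± 0.28 labelled Dab2-cKO, a difference of 2.33, and the ratios to Foxp1 and to Runx1 were higher by 2.02 and 2.09. In each of the 3 ratios the libraries of the genotypes did not overlap (exact 2-sided permutation test, p = 0.1 each).

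Levels per kb of exon allow the factors to be set against each other. In the libraries labelled WT, Nfib at 247 ± 6.81 normalized counts per kb, Nfix at 239 ± 14.9 and Sox9 at 231 ± 12.5 led the order, and their ranges overlapped. Klf5 followed at 135 ± 1.75, then Tbx1 and Foxc1 with overlapping ranges at 110.3 and 105, then Lhx2, Foxp1 and Runx1, each overlapping the next, at 65.8, 62.4 and 55.3. Nfatc1 was lowest, at 30.1 ± 0.48. In the libraries labelled Dab2-cKO, Nfix stood alone at 381 ± 12.9, followed without overlap by Nfib at 184, Klf5 at 136, Sox9 at 85.0, Nfatc1 at 75.4, Foxc1 at 52.7, Foxp1 at 38.5 and Runx1 at 32.4. Runx1, Tbx1 at 27.5 and Lhx2 at 24.5 came last, each overlapping the next. Sox9 thus passed from the leading group of 3 to below Klf5, and Nfatc1 from the last place to the fifth. For scale, 1526 chemosensory receptor genes, which skin is not known to use, had a median of 4.94 and a 95th percentile of 11.8 normalized counts per kb, below every factor in both genotypes.

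**Figure D3:**
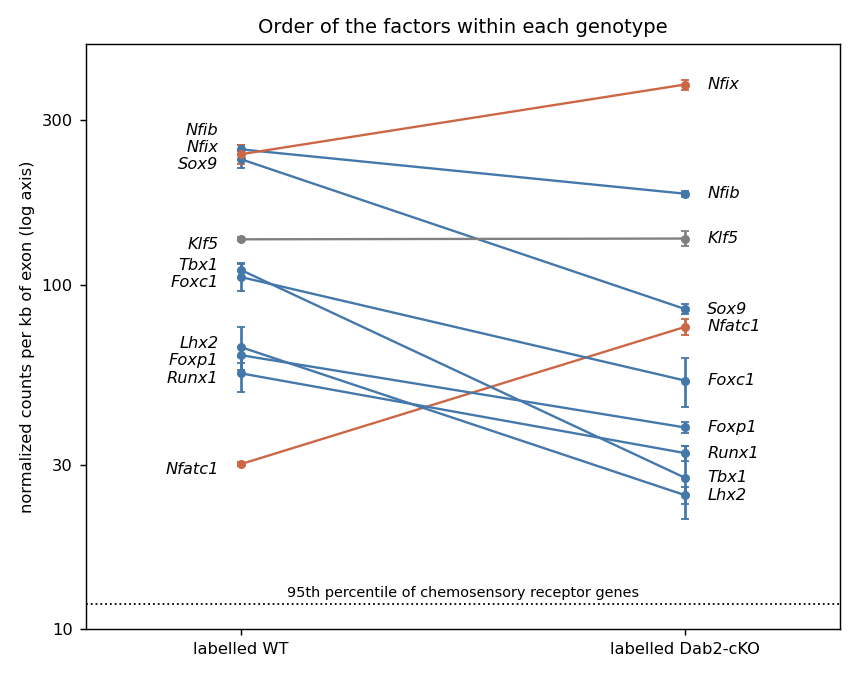
Mean normalized counts per kb of exon (log axis, ± SD, n = 3) of the 10 factors in the libraries labelled WT (left) and Dab2-cKO (right), with lines in orange for the called rises, blue for the called falls and grey for Klf5. The lines of Nfatc1 and Tbx1 cross, and all factors lie above the dotted line at 11.8, the 95th percentile of chemosensory receptor genes.

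The start regions of 4 factors that fell are shown because they hold letters that nuclear factor I (NFI) or RUNX proteins bind, which are families of the list itself. Each is the 250 bases before the start of the canonical GENCODE transcript (GRCm39), written 5′ to 3′ on the strand of the gene, with matches on either strand in capitals. The windows are chr11:112672759-112673008 (plus strand) for Sox9, chr2:38240521-38240770 (plus) for Lhx2, chr13:31990366-31990615 (plus) for Foxc1 and chr16:92623038-92623287 (minus) for Runx1.
Sox9: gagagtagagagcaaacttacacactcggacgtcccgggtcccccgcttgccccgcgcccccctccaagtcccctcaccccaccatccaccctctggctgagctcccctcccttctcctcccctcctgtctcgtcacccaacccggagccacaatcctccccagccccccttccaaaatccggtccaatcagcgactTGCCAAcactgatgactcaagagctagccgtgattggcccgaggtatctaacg
Lhx2: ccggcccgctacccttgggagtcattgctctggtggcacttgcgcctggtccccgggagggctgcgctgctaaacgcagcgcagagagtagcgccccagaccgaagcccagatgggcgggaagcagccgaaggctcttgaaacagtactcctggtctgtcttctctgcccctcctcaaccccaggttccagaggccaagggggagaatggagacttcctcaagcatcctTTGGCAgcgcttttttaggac
Foxc1: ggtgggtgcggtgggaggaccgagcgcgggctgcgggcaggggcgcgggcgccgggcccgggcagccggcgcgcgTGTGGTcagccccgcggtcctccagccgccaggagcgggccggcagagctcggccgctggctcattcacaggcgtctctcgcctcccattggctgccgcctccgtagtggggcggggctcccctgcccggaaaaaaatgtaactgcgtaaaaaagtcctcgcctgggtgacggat
Runx1: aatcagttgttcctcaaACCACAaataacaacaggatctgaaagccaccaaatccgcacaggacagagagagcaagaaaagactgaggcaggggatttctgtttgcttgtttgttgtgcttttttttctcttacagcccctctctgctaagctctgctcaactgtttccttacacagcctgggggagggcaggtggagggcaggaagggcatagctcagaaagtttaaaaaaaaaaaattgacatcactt
The NFI half-site TTGGCA, or its reverse complement, starts 53 bases before the Sox9 transcript and 21 bases before that of Lhx2. The RUNX letters TGTGGT, or their reverse complement, start 175 bases before Foxc1 and 233 bases before Runx1. Windows of the same length at 21770 protein-coding genes held the NFI letters in 12.3% and the RUNX letters in 13.0%. Of the 9 windows of the factors that were searched, 2 held the NFI letters and 2 the RUNX letters. The letters AACAAT of SOX proteins (9.67% of all windows), TAATTA of LHX proteins (5.18%), ATCAAAG of TCF/LEF proteins (2.86%), GTAAACA of forkhead proteins (2.72%), TGGAAA of NFAT proteins (19.4%) and AGGTGTGA of T-box proteins (0.960%) were in none of the 9 windows. No match in the windows shown overlapped another, and a match is a description of the sequence that says nothing of binding.

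Of 22 genes of the same families, the paralogs, 11 were higher and 1, Runx2, was lower, with a median log2 fold change of 0.45. The 12 called of 22 stand beside the 28.2% called among all genes tested and the 60.5% called among genes averaging 100 normalized counts or more, 37.6% as higher, so the share called is no result about the paralogs. Against library size alone 8 were higher and 3 lower, and against the keratinocyte genes 8 and 6. Nfia and Nfic rose together, with log2 fold changes of 1.29 and 1.08, so that of the 4 nuclear factor I genes only Nfib fell. Nfatc2, which is prominent in T cells, rose by 1.14, Nfatc4 by 1.01, and Nfatc3 at 0.04 was not called. Nfatc3 was called lower under library size alone (-0.39, adjusted p = 5.32e-06) and against the keratinocyte genes (-0.63, adjusted p = 2.67e-12). Tbx15, a T-box gene of dermal cells and muscle, rose from 269.4, 271.7 and 285.4 to 695.2, 653.6 and 620.3 (log2 fold change 1.25, SE 0.09, adjusted p = 1.61e-19) while Tbx1 fell. Among the Krüppel-like factors, Klf2, known from endothelial and T cells, had the largest rise of the list at 2.14 (SE 0.17, adjusted p = 3.57e-18), followed by Klf6 at 1.01, Klf4, a barrier factor of upper epidermal layers, at 0.96 and Klf7 at 0.41. Klf7 was not called under library size alone (adjusted p = 0.921) and was lower against the keratinocyte genes (log2 fold change -0.26, adjusted p = 0.0403). Runx3 and Foxp4 rose by 0.48 and 0.41, though neither was called without replicate 1 labelled Dab2-cKO (adjusted p = 0.142 and 0.102) or without replicate 3 labelled WT (0.0779 and 0.0635), and Runx2 fell by 0.57. Runx3 and Foxp4 were also not called under upper-quartile scaling (adjusted p = 0.110 and 0.112), library size alone (0.805 and 0.953) or the keratinocyte genes (0.336 and 0.0998). Sox8, Sox10 and Foxp2 were not called, with log2 fold changes of 0.60, 0.08 and 0.29. Against the keratinocyte genes Sox10 and Foxp2 were called lower (adjusted p = 0.00262 and 0.0377). The fibroblast, endothelial, immune and muscle markers given above moved in the same direction as the paralogs that rose, and their part in it was not tested. The immune marker that was not called was the T cell gene Cd3e, which averaged 56.0 and 74.5 (log2 fold change 0.42, adjusted p = 0.147).

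The share of each factor in the summed level of its family is free of the scaling between libraries. Nfib made up 40.3, 38.8 and 39.3% of the nuclear factor I genes in the libraries labelled WT and 20.5, 20.8 and 21.5% in those labelled Dab2-cKO. The share of Nfix in the same family went from 38.2 ± 0.77% to 43.4 ± 1.19%. Nfatc1 made up 28.1 ± 1.00% of the calcium-responsive NFAT genes and then 38.4 ± 1.51%, although Nfatc2 and Nfatc4 were also higher. Sox9 fell from 86.3 ± 1.41% to 67.3 ± 3.23% of Sox8, Sox9 and Sox10, Foxp1 from 65.0 ± 0.89% to 46.7 ± 2.18% of 3 Foxp genes, and Runx1 from 58.6 ± 3.55% to 45.1 ± 0.66% of 3 Runx genes. Among these relatives, Sox8 averaged 6.2 normalized counts per kb labelled WT and 9.3 labelled Dab2-cKO, and Foxp2 6.8 and 8.3. Both lay below 11.8, the 95th percentile of chemosensory receptor genes, so their part of the sums may be background. Klf5, not called in the test of its own counts, went from 17.4 ± 1.47% to 9.42 ± 0.29% of 5 Krüppel-like genes. The libraries of the genotypes did not overlap in any of the 7 shares. Each exact 2-sided permutation test gave p = 0.1 (0.1 also after Benjamini-Hochberg adjustment over the 7 tests), and with 3 against 3 none could pass 0.05.

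**Figure D4:**
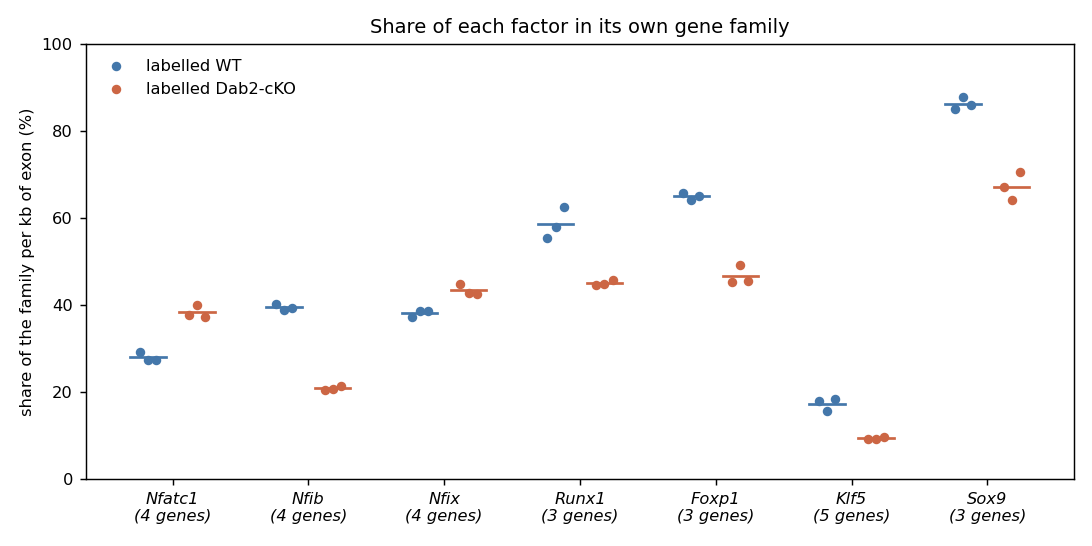
Share (%) of each factor in the summed normalized counts per kb of its gene family, per library, with bars at the group means. The share of Nfatc1 and Nfix is higher on the Dab2-cKO side, that of Nfib, Runx1, Foxp1, Klf5 and Sox9 is lower, and no share overlaps between the genotypes.

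Partners and reported targets of the factors did not follow one direction. Of 26 tested, 8 were lower and 7 higher, with a median log2 fold change of -0.10. The 15 called of 26 are close to the 60.5% called among genes averaging 100 or more. The split was 13 and 6 under upper-quartile scaling, 17 and 5 under library size alone, and 20 and 4 against the keratinocyte genes. Around Nfatc1, the calcineurin subunits Ppp3ca, Ppp3cb and Ppp3r1 were higher by 1.01, 0.22 and 0.48 on the log2 scale. Ppp3cb lost its call under DESeq2 and without any single library but replicate 1 labelled WT, and it turned lower under library size alone and against the keratinocyte genes, the latter also true of Ppp3r1. Under library size alone Ppp3r1 was not called (adjusted p = 0.571). Rcan1, a calcineurin inhibitor that NFAT proteins induce, was not called, at 281.7, 283.5 and 270 against 260.3, 315.3 and 341 (log2 fold change 0.13, adjusted p = 0.444). It was called lower under library size alone (-0.30, adjusted p = 0.0198) and against the keratinocyte genes (-0.54, adjusted p = 1.04e-05).

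Cdk4, the cell-cycle kinase gene that Nfatc1 is known to repress, was lower. It went from 548.9, 562.4 and 573.3 to 265.1, 319.9 and 334.4 (log2 fold change -0.88, SE 0.10, adjusted p = 2.48e-12). Prlr, the prolactin receptor, reported downstream of Nfatc1, was higher, at 296.2, 264.5 and 258 against 493, 478.7 and 590.5 (log2 fold change 0.94, SE 0.10, adjusted p = 1.20e-12). Of the BMP pathway, which sustains Nfatc1 in the bulge, the receptor gene Bmpr1a fell by 0.64 (SE 0.07, adjusted p = 1.17e-11), the ligand gene Bmp4 by 0.34 (SE 0.12, adjusted p = 0.0245) and the target gene Id3 by 0.60 (SE 0.12, adjusted p = 2.99e-05). Bmp4 was not called without replicate 2 labelled WT (adjusted p = 0.152) or replicate 3 labelled Dab2-cKO (adjusted p = 0.129). Id1 and Id2 were not called, at -0.08 and 0.01. Both were called lower under library size alone (-0.51 and -0.42, adjusted p = 0.000156 and 0.00113). They were also called lower against the keratinocyte genes (-0.75 and -0.66, adjusted p = 3.38e-08 and 3.03e-07).

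For Foxc1, the adhesion gene Cdh1 fell by 0.50 (adjusted p = 2.91e-08) and the quiescence ligand gene Bmp2 by 0.91 (adjusted p = 1.70e-07). Bmp6 was not called, at 115.8, 116.5 and 110.2 against 97.27, 92.05 and 80.57. It was called lower under upper-quartile scaling (log2 fold change -0.48, adjusted p = 0.0215), library size alone and the keratinocyte genes. Fgf18, the quiescence ligand gene downstream of Foxp1, had 26.5 to 35.6 normalized counts labelled WT and 40.8 to 56.3 labelled Dab2-cKO, without overlap but not called (log2 fold change 0.58, adjusted p = 0.110).

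For Runx1, the partner subunit gene Cbfb was not called (log2 fold change -0.15, adjusted p = 0.227). Cdkn1a, which encodes p21 and is known as a gene that Runx1 represses in HFSCs, was at 563.4, 659.9 and 663.9 against 619.8, 539.6 and 561.8, which overlap (log2 fold change -0.13, SE 0.08, adjusted p = 0.268). Cdkn1b and Cdkn2b were not called either, at -0.16 and -0.04, whereas Cdkn1c was higher by 0.96 (adjusted p = 3.24e-05) but not called against the keratinocyte genes (0.29, adjusted p = 0.212). Cdkn1a was called lower under upper-quartile scaling, library size alone and the keratinocyte genes (-0.28, -0.56 and -0.80, adjusted p = 0.00213, 3.43e-10 and 7.37e-17). The same scalings called Cbfb and Cdkn1b lower, and the keratinocyte genes alone did so for Cdkn2b (-0.71, adjusted p = 0.00261). Stat3 rose by 1.05 (SE 0.08, adjusted p = 8.53e-20) and Socs3, the feedback inhibitor of that pathway, by 1.39 (SE 0.14, adjusted p = 1.25e-13), the largest rise of the 26. The largest fall was that of Lgr5, a receptor of bulge and hair germ cells listed with Lhx2, from 405.3, 431.5 and 406.7 to 143, 166.8 and 189.8 (log2 fold change -1.32, SE 0.11, adjusted p = 2.01e-16). Tcf7l2, also listed with Lhx2, and Inhbb, listed with Sox9, were not called, at -0.11 and 0.14. Tcf7l2 was called lower under upper-quartile scaling (-0.25, adjusted p = 0.0160), library size alone and the keratinocyte genes. Inhbb was called lower against the keratinocyte genes (-0.53, adjusted p = 0.000213). Edn2, the endothelin gene that Nfib is known to repress, had few counts and was lower, at 53.44, 46.95 and 46.14 against 22.89, 39.12 and 14.35 (log2 fold change -0.94, SE 0.30, adjusted p = 0.00990), and was not called without replicate 3 labelled Dab2-cKO (adjusted p = 0.105). Among the 26 genes, opposite-strand genes overlap over 10% of the exon bases of Id2 (36.2%), Bmp4 (31.1%), Cdkn1c (29.0%), Cdk4 (18.8%), Id1 (13.7%), Cdkn1a (12.5%), Id3 (11.8%) and Socs3 (11.8%), and a same-strand gene overlaps 13.6% of those of Ppp3r1.

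**Figure D5:**
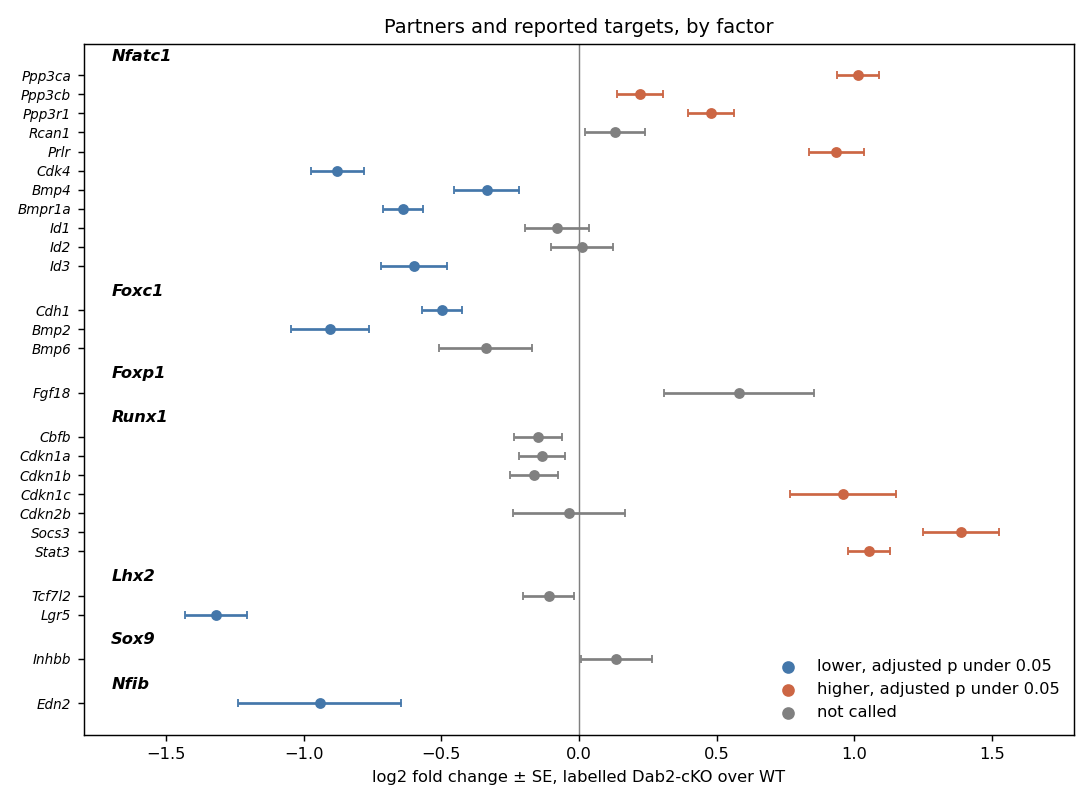
Log2 fold change (± SE, libraries labelled Dab2-cKO over WT) of the 26 partners and reported targets, grouped by the factor they belong to, with blue for called lower, orange for called higher and grey for not called. The points run from -1.32 for Lgr5 to 1.39 for Socs3, and the genes listed with Nfatc1 and Runx1 lie on both sides of 0.

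Of 16 other factors known in follicle stem cells, 9 were lower and 5 higher, with a median log2 fold change of -0.38. Among all genes averaging 100 normalized counts or more, 60.5% were called, 22.8% as lower and 37.6% as higher. The split of the 16 factors was 11 and 3 under upper-quartile scaling, 9 and 3 under DESeq2, 12 and 2 under library size alone, and 14 and 1 against the keratinocyte genes. Only 3 were higher without replicate 1 labelled WT, and likewise without replicate 1 or replicate 3 labelled Dab2-cKO. Vdr, the vitamin D receptor that the follicle needs to cycle after its first growth, had the largest fall, from 1333 to 398.7 (log2 fold change -1.74, SE 0.08, adjusted p = 1.55e-29). Rbpj, the DNA-binding partner of Notch, had the largest rise outside Stat3, which is in 2 of the lists, from 437 to 705 (log2 fold change 0.69, SE 0.08, adjusted p = 9.96e-11), a rise not called against the keratinocyte genes (0.02, adjusted p = 0.836).

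Factors of differentiated lineages, into which the progeny of bulge cells pass, showed the widest movement. All 10 factors of the matrix, hair shaft and inner root sheath were lower, with a median log2 fold change of -2.95, and Msx2, a homeobox gene of the matrix, fell the most, from 758 to 41.0 (log2 fold change -4.22, SE 0.13, adjusted p = 2.78e-39). Each of the 7 bulge factors that fell had a smaller change than that median. Of 8 factors of epidermis and sebaceous gland, 3 were lower and 4 higher, and Pparg, the sebocyte and adipocyte receptor, rose the most, from 97.0 to 278 (log2 fold change 1.52, SE 0.13, adjusted p = 9.28e-16). Of all 18 differentiation factors 13 were lower and 4 higher, beside 22.8% and 37.6% of all genes averaging 100 normalized counts or more. Against the keratinocyte genes 1 of the 18 was higher. The shaft markers moved with the first group and the sebaceous markers with Pparg, as given above.

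The genes whose log2 CPM (counts scaled to the effective library size, that is with TMM factors, and a prior count of 2) followed a factor most closely over the 6 libraries were Zfp652 and Stat3 for Nfatc1, Ankrd28 and Ckap5 for Foxc1, Ptpn4 and Atp13a2 for Foxp1, Hist1h3d and 2310007B03Rik for Sox9, and Patj and Pabpc1 for Lhx2. They were Ivl and Fat1 for Nfib, Picalm and Serpinf1 for Nfix, Klrg2 and Rmnd5a for Runx1, and Kif22 and Bora for Tbx1. These Pearson correlations lay between 0.995 and 1.00 and reflect mostly the difference between the genotypes that all these genes share. For Nfatc1, 2478 of 10836 genes correlated above 0.95. For Klf5, which did not separate the genotypes, only 5 did, Gosr1 (0.992) and Stag3 (0.974) at their head.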

How the data were processed

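Per the labels and the paper's methods, RNA of FACS sorted HFSCs (5 ng) was made into libraries with a SMARTer pico kit for stranded total RNA. The authors checked reads with FastQC 0.11.9, trimmed them with fastp 0.23.4, aligned them to GRCm39 with HISAT2 2.2.1 and counted them per gene with featureCounts 2.0.6, and they deposited these counts without normalization. The strand setting and the use of molecular identifiers are not given in the sources used here. The authors also deposited their own DESeq2 comparison (fold changes and p-values), which was not used.

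Starting from the counts, genes were filtered by the default expression filter of edgeR 4.0.16 (R 4.3.3), scaled by TMM and compared with genotype as the only term by the robust quasi-likelihood test, with Benjamini-Hochberg adjustment over all 32149 genes and calls at an adjusted p under 0.05. For normalized counts, each count was divided by the library total times its TMM factor and multiplied by the mean of these products. Exon lengths, coordinates and overlaps come from the GENCODE annotation of GRCm39. The 3 libraries of a genotype are biological replicates per the study's methods, and none held the same counts as another. The summed skeletal muscle markers ranged from 48590 to 56540 normalized counts labelled WT, and only from 220800 to 223200 labelled Dab2-cKO. Whether the libraries of a genotype came from separate mice or from a shared pool was not tested. The SD, SE and adjusted p-values therefore describe the spread between libraries, which may be smaller than that between mice. A gene with 0 counts could still make up 2.56e-05% (deepest library) to 4.26e-05% (shallowest) of the counts, for counting error only. The code was tested on simulated data.

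The factors, the lists of related genes and the markers were chosen with earlier results of these data known. Named genes were all 10 factors, every partner and target, every paralog in a family share, the largest called rise and fall of each other list among genes averaging 100 normalized counts or more, and for each factor the 2 most alike genes. Tbx15, Tbx10, Foxc2 and Tbx22 were named after their values were seen. Krt85 was not analysed here, and the start region of 1 factor is not reported here. Alternatives were DESeq2 1.42.0, upper-quartile scaling, library size alone, TMM without mitochondrial and the 100 most abundant genes, no filter, only genes averaging 50 counts or more, a replicate block, each library left out and, added after seeing the data, scaling to Krt5, Krt14 and Itga6.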

Additional observations from a re-analysis of the deposited data

How the results depend on the processing

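The 7 factors that fell and Nfatc1 kept their direction and their call under all 14 alternatives, and Nfix under all but the scaling to Krt5, Krt14 and Itga6, which leaves 1 factor called higher. For the 7 falls the other scalings were no test, since each moved the log2 fold changes of all genes downward. Count summaries left the range of 1.5 times the reported value in these cases. Under library size alone 3 paralogs and 17 partners and targets were lower and 2 other follicle factors higher. Scaled to Krt5, Krt14 and Itga6, 6 paralogs, 20 partners and targets and 14 other follicle factors were lower, 4 partners and targets, 1 other follicle factor and 1 differentiation factor higher, and 24 partners and targets were called in all. Under upper-quartile scaling 13 partners and targets were lower and 3 other follicle factors higher, and DESeq2 called 3 of the latter higher too. With each library left out, 3 to 5 other follicle factors were higher. Without the low-count filter and under DESeq2, 9 factors were called as before.

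Log2 fold changes of some genes that were mostly not called turned sign. Under library size alone these were Klf5 (-0.42), Nfatc3 (-0.39), Foxp2 (-0.14), Foxp4 (-0.011), Klf7 (-0.015), Sox10 (-0.35), Ppp3cb (-0.21), Rcan1 (-0.30), Id2 (-0.42) and Inhbb (-0.29). Scaled to Krt5, Krt14 and Itga6 they were Klf5 (-0.66), Nfatc3 (-0.63), Runx3 (-0.19), Foxp2 (-0.38), Foxp4 (-0.25), Klf7 (-0.26), Sox8 (-0.076), Sox10 (-0.59), Ppp3cb (-0.45), Ppp3r1 (-0.19), Rcan1 (-0.54), Id2 (-0.66), Fgf18 (-0.087) and Inhbb (-0.53). Under upper-quartile scaling they were Klf5 (-0.14), Nfatc3 (-0.10), Sox10 (-0.063), Rcan1 (-0.012), Id2 (-0.13) and Inhbb (-0.0062), among genes averaging 50 counts or more Klf5 (-0.079), Nfatc3 (-0.045), Sox10 (-0.0061) and Id2 (-0.075), for TMM without the most abundant genes Klf5 (-0.021) and Id2 (-0.018), and with no filter Klf5 (-0.025) and Id2 (-0.023). A scaling moves all genes of a library by 1 factor, so these turns come from its construction. With each library left out, Klf5 ranged from -0.052 to 0.020, Nfatc3 from -0.015 to 0.094, Sox10 from -0.029 to 0.13, Id2 from -0.049 to 0.067 and Cdkn2b from -0.38 to 0.17. The 7 family shares kept their direction in every alternative, also as shares of counts without division by exon length.

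The replicate numbers gave no steady pairing of the libraries. Deviations of same-numbered libraries correlated at 0.14, -0.05 and 0.10 over 10853 genes. Replicates 1 and 3 labelled WT correlated best with their own number labelled Dab2-cKO, and replicate 2 labelled WT with replicate 3 (0.11). With the replicate block, 8967 genes were called in place of 9069, and 9 factors, 12 paralogs, 15 partners and targets, 13 other follicle factors and 17 differentiation factors were called. Counts were low for Edn2, Fgf18 and Sox8 and for the paralogs Tbx10, Foxc2 and Tbx22, each at under 60 normalized counts in every library.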
